A study of Rattus norvegicus with 16 samples.

Results

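The genes described here are 31 components of the machinery that stores neurotransmitter in synaptic vesicles and releases it: calcium sensors, vesicle membrane proteins, SNARE proteins and their regulators, active zone scaffolds and proteins of vesicle recycling. They were taken by name from a table of read counts of 33294 rat genes, and all 31 were found and were abundant enough to test among the 17856 genes tested. Their counts in a single library ran from 200 to 33943 reads. Poly(A) RNA had been sequenced from adult rats, from tissue labelled as central amygdala, an output nucleus of the amygdala built mainly of GABAergic neurons. Around birth the rats had been exposed to saline or to the opioid agonist fentanyl. All of them went through sessions that the labels name only by the abbreviation IVSA, the last of which was 1 day before tissue collection. Each exposure had 6 males and 2 females. Strain, dose and litter are not in the labels, so the p-values measure the spread between these animals and make no allowance for shared litters.

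A vesicle filled with transmitter is held near the active zone by scaffold proteins, and its fusion is driven when VAMP on the vesicle zips together with syntaxin and SNAP-25 on the plasma membrane. Complexins hold the partly zipped complex, synaptotagmins bind calcium and trigger fusion, and NSF with its SNAP adaptors takes the spent complex apart. The membrane is then retrieved by endocytosis. Many of these proteins come as pairs of related genes whose use differs between types of neuron: Vamp1, Cplx1 and Syt2 are best known from fast-firing neurons and from hindbrain and brainstem, while Vamp2, Cplx2 and Syt1 are more common in the forebrain.

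Total counts per library ran from 12879701 to 22426428, and levels are given in CPM, the reads of a gene per library size after TMM scaling. Genes differ in length, so a level is compared between libraries and not between genes. The tissue held markers of the neighbouring striatum and of myelin in amounts that differed between libraries. Summed levels of 15 striatal spiny neuron markers ran from 3182 to 12565 CPM in saline males, from 7230 to 11353 in fentanyl males, from 6647 to 7260 in saline females and from 10727 to 15837 in fentanyl females. Those of 13 myelin markers ran from 7477 to 33907, 14928 to 35263, 25911 to 26268 and 8274 to 19482 CPM in the same order. Markers of central amygdala neurons (14 genes) had 592 to 1565, 1034 to 1488, 893 to 1048 and 1252 to 2087 CPM, with none at 0 in any group, but Crh, the stress peptide of lateral central amygdala neurons, was low at 0.521 to 17.2 CPM over all groups. This 14-gene sum and the striatal sum were both lowest in saline male replicate 6 and highest in fentanyl female replicate 2. By itself the 14-gene sum thus does not tell central amygdala from striatal neurons. A list of 12 genes found in all neurons had 4524 to 5113 CPM in saline males, 4829 to 5249 in fentanyl males, 4252 to 4452 in saline females and 4862 to 5408 in fentanyl females, so the exposures overlapped in males and not in females. In bulk tissue, fewer cells of a type and less RNA per cell cannot be told apart. Slc17a7, a glutamatergic marker, had 68.1 CPM in saline male replicate 3 and at most 3.33 CPM elsewhere, and fentanyl male replicate 2 had 17.7% mitochondrial reads against a lowest share of 8.44%.

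**Figure D1:**
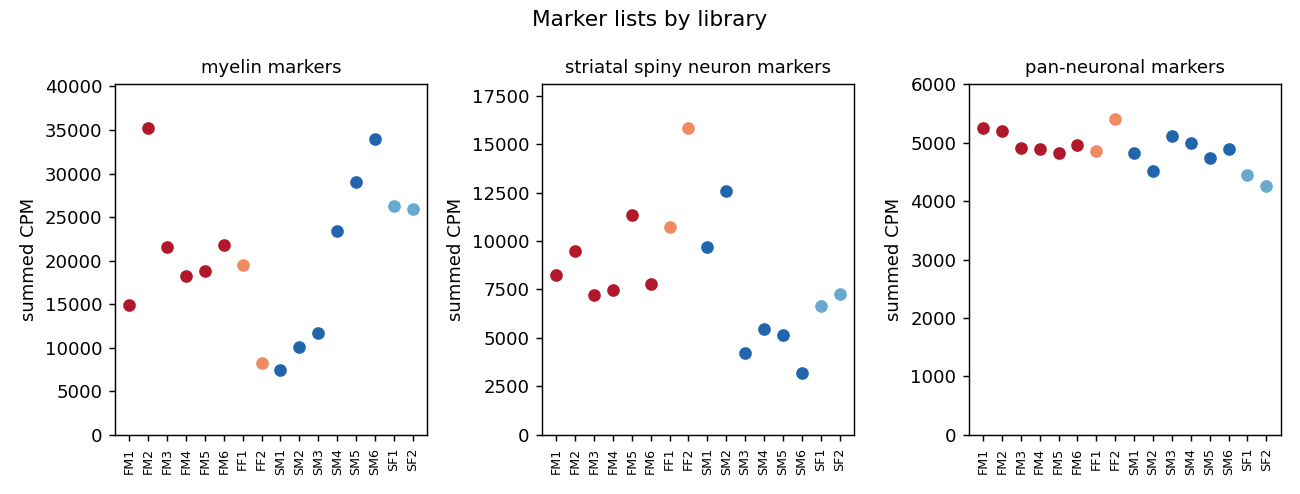
Summed CPM (y axes) of the myelin, striatal spiny neuron and pan-neuronal marker lists in each of the 16 libraries (x axis: FM, FF, SM and SF for fentanyl or saline, male or female, with the replicate number; red and orange points fentanyl, dark and light blue points saline). Myelin sums run from 7477 to 35263 CPM and striatal sums from 3182 to 15837 CPM, and pan-neuronal sums from 4252 to 5408 CPM, with both fentanyl females above both saline females.

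The first comparison set 8 fentanyl against 8 saline offspring, with sex as a term, and asks whether transcripts of the release machinery differ in adults by exposure around birth. With edgeR's quasi-likelihood method and p-values adjusted over all genes tested, none of the 31 genes passed 0.05, where 0.0784% of all genes did. At an unadjusted p under 0.05 there were 3 of 31, all higher after fentanyl, beside 7.27% of all genes, and leaving out 1 library gave 1 to 4. In 22 of the 31 the log2 fold change was above 0, beside 47.7% of all genes, and the median was 0.05, beside -0.01 over all genes. No gene of the group separated the 8 fentanyl from the 8 saline libraries, as 0.101% of all genes did. The 95% interval of the fold change lay within 1.5-fold in either direction for 26 of the 31.

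The 3 genes under an unadjusted p of 0.05 were Cplx2, Nsf and Napa. They make up 9.68% of the 31, near the 7.27% of all genes. Their relatives Cplx1 and Napb had log2 fold changes of 0.03 and 0.02. Cplx2, complexin 2, had a lowest, median and highest level of 988, 1151 and 1408 CPM in saline males and of 1075, 1340 and 1433 CPM in fentanyl males. In females it had 1154 and 1031 CPM after saline and 1653 and 1821 CPM after fentanyl. The ranges overlap in males, with fentanyl male replicate 2 and saline male replicates 3, 5 and 6 at the low end, and both fentanyl females lie above every other library. The mean was 1423 ± 226 CPM in fentanyl and 1162 ± 162 CPM in saline offspring (SD, n = 8 each). On the log2 scale the fitted difference was 0.28 ± 0.11 (SE), with an adjusted p of 0.603 by edgeR.

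Nsf, the ATPase that pulls SNARE complexes apart, ran from 556 to 860 CPM in saline males (median 735) and from 655 to 934 CPM in fentanyl males (median 822). Female levels were 576 and 692 CPM after saline and 817 and 966 CPM after fentanyl. The lowest value belongs to saline male replicate 6, and the groups overlap in males and not in females. The log2 fold change was 0.24 ± 0.11 (adjusted p = 0.676).

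Napa, alpha-SNAP, the adaptor through which NSF grips the complex, ran from 150 to 217 CPM in saline males (median 170) and from 179 to 221 CPM in fentanyl males (median 184). The saline females had 180 and 182 CPM and the fentanyl females 226 and 277 CPM. Saline male replicate 2, at 217 CPM, lies among the high fentanyl libraries. The log2 fold change was 0.20 ± 0.09 (adjusted p = 0.685). Napb, the neuronal beta-SNAP, had 299 ± 33.4 CPM in fentanyl and 296 ± 51.8 CPM in saline offspring (SD, n = 8 each), and its fold change of 1.01 had an interval from 0.880 to 1.16.

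Snap25, the plasma membrane SNARE with the next smallest p, ran from 1243 to 1434 CPM in saline males (median 1338) and from 1371 to 1899 CPM in fentanyl males (median 1433). In females the levels were 1368 and 1045 CPM after saline and 1364 and 1514 CPM after fentanyl. Fentanyl male replicate 2 holds the highest value, and without it the log2 fold change of 0.19 ± 0.09 (adjusted p = 0.695) was 0.14. Vamp2, the main vesicle SNARE of forebrain synapses, ran from 551 to 728 CPM in saline males (median 643) and from 598 to 699 CPM in fentanyl males (median 629). In females it had 558 and 496 CPM after saline and 620 and 820 CPM after fentanyl. The range of fentanyl males lies inside that of saline males, and the log2 fold change of 0.11 ± 0.09 was 0.04 without fentanyl female replicate 2. Stx1a, syntaxin 1A of the plasma membrane, had 22.9 ± 5.34 CPM in fentanyl and 22.3 ± 10.5 CPM in saline offspring (SD, n = 8 each).

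**Figure D2:**
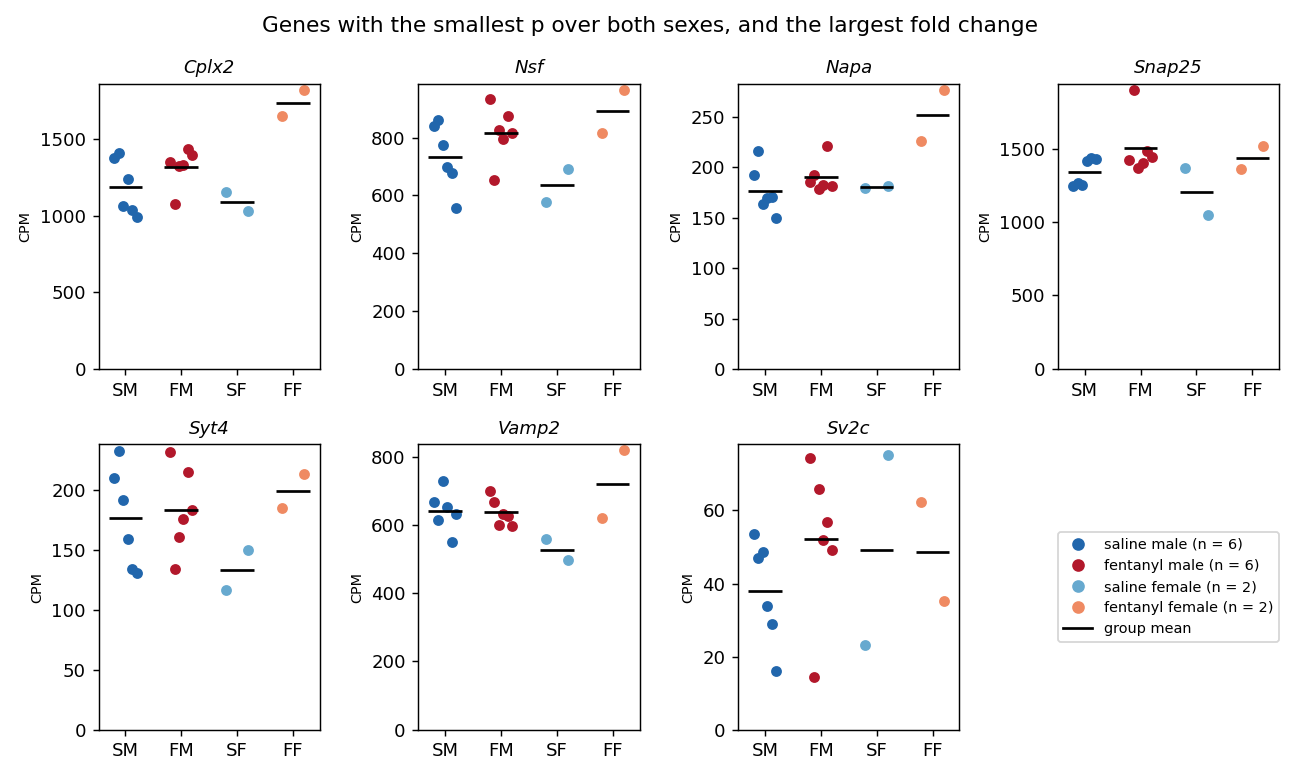
Level in CPM (y axes, from 0) of 7 release machinery genes in saline males (SM), fentanyl males (FM), saline females (SF) and fentanyl females (FF). Each point is 1 library and each bar a group mean. For Cplx2 both fentanyl females, at 1653 and 1821 CPM, lie above all other libraries, and in males the exposures overlap for each of the 7 genes.

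The log2 fold changes of the 5 synaptotagmins, the family of calcium sensors, ran from 0.02 to 0.19. Syt4, a synaptotagmin of dense-core vesicles induced by activity, had the smallest p of these. It ran from 131 to 233 CPM in saline males (median 176) and from 134 to 232 CPM in fentanyl males (median 180), with 117 and 150 CPM in saline and 185 and 214 CPM in fentanyl females. The male ranges nearly coincide, and the log2 fold change of 0.19 ± 0.15 (adjusted p = 0.819) was 0.12 without saline female replicate 1. Syt1, the sensor for fast release in forebrain neurons, had 266 ± 84.5 CPM after fentanyl and 264 ± 82.6 CPM after saline (SD, n = 8 each). Syt7, which supports slow and asynchronous release, and Syt11, which does not bind calcium, had fold changes of 1.03 (interval 0.888 to 1.19) and 1.01 (0.883 to 1.16).

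Among the vesicle membrane proteins, 6 of 8 had a log2 fold change above 0. Sv2c, a vesicle glycoprotein found mainly in the basal ganglia, had the largest one of all 31, 0.34 ± 0.31, with an interval of the fold from 0.798 to 2.00. It ran from 16 to 53.7 CPM in saline males (median 40.4) and from 14.4 to 74.4 CPM in fentanyl males (median 54.4). In females it had 23.0 and 75.1 CPM after saline and 62.3 and 35.2 CPM after fentanyl. Low and high values occur in both exposures, with the lowest in fentanyl male replicate 2 and the highest in saline female replicate 2. The log2 fold change was 0.21 without saline male replicate 6 and 0.56 without saline female replicate 2. Sv2b, a related glycoprotein, had 0.27 ± 0.28, and Sv2a, the binding site of the antiepileptic levetiracetam, had 381 ± 57.5 against 385 ± 67.1 CPM. Synaptophysin (Syp), the most used marker of vesicles, differed by a fold of 1.02 with an interval from 0.854 to 1.21. Rab3a, the small GTPase that tethers vesicles at the active zone, was the most even of the group in this comparison, with 405 ± 25.8 and 389 ± 35.7 CPM (SD, n = 8 each), and its interval ran from 0.942 to 1.16. The synapsins, which cluster vesicles in reserve, had log2 fold changes of 0.09 for Syn1, -0.022 for Syn2 and 0.12 for Syn3.

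Log2 fold changes of the 6 active zone genes lay on both sides of 0. Those of the priming factor Unc13a (0.09), the scaffold Bsn (0.14) and the calcium channel tether Rims2 (0.06) were above 0. Those of Rims1, the relative of Rims2 (-0.10), Pclo, the giant scaffold piccolo (-0.13), and Unc13c, a relative of Unc13a (-0.0040), were below it. The 3 endocytosis genes, Dnm1 (dynamin, which cuts the vesicle free), Amph (amphiphysin) and Sh3gl2 (endophilin), all had values below 0, from -0.15 to -0.01, with no unadjusted p under 0.05. All 3 had values above 0 with marker list means as covariates (0.15, 0.17 and 0.23 in that order) and without saline males of library numbers 9 to 12 (0.07, 0.05 and 0.12). Bsn, Rims2 and Unc13a turned to values below 0 under both of these settings, Vamp1 to values above 0. Vamp1, the other vesicle SNARE, had the lowest log2 fold change of the 31, -0.26 ± 0.24, with an interval of the fold from 0.592 to 1.19, and Cplx1 had 0.03 ± 0.16.

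**Figure D3:**
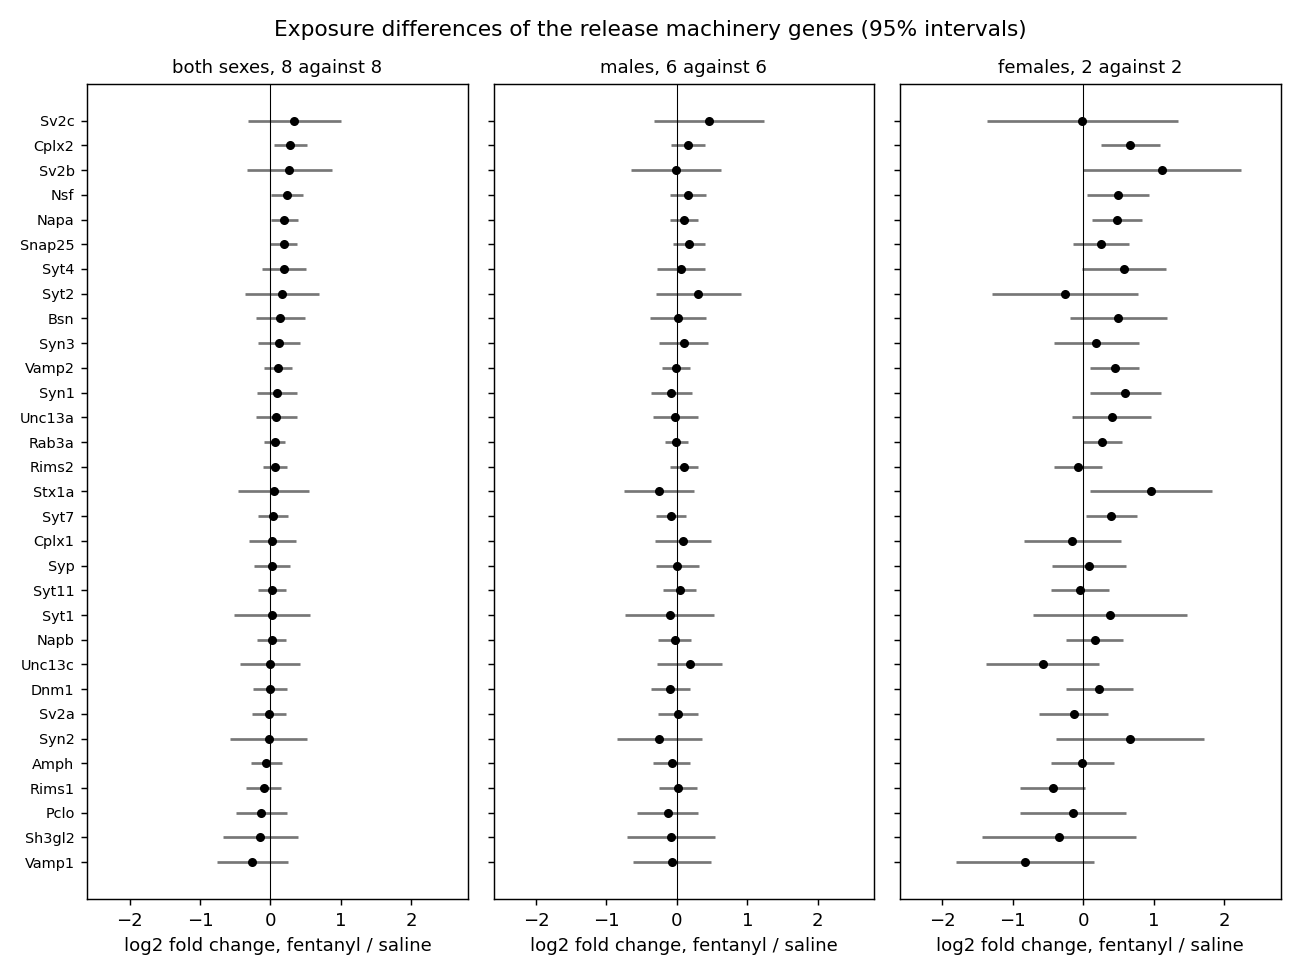
Log2 fold change of fentanyl over saline (x axes) for the 31 genes, as points with 95% intervals, over both sexes (8 against 8), in males (6 against 6) and in females (2 against 2, with the spread of all groups). Over both sexes 26 of the 31 intervals lie within 1.5-fold, in females 5 of 31.

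Other tools and other sets of saline males gave other counts. DESeq2 called none of the 31 and limma voom with sample quality weights called 4, all higher (Cplx2, Nsf, Sv2b and Sv2c), where it called 5.63% of all genes. Without the 2 saline males of library numbers 1 and 2, 3 were called, all higher (Cplx2, Napa and Sv2b), beside 6.9% of all genes, with a log2 fold change of 0.40 ± 0.10 for Cplx2 (adjusted p = 0.0243 by edgeR). The 2 libraries left out held the highest saline values of all 3 genes, such as 1376 and 1408 CPM for Cplx2. These calls are therefore no separate support for a difference. With the 4 saline males of numbers 9 to 12 left out instead, none was called and Cplx2 had 0.21 ± 0.15. With the mean levels of the myelin and striatal lists as covariates, none was called, and values moved both ways. Napa had 0.05 ± 0.06 and Sv2b 0.06 ± 0.15, while Syp had 0.37 ± 0.08 (adjusted p = 0.137 by edgeR), Stx1a 0.35 ± 0.12 and Syn1 0.27 ± 0.08. Cplx2 had 0.19 ± 0.09. In that fit 26 of the 31 values were above 0, with a median of 0.15, and 10 of the 31 had turned direction. The share of all genes above 0 was not counted for it.

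In males alone, 6 against 6, no gene of the 31 passed and none had an unadjusted p under 0.05, beside 0.0392% and 4.13% of all genes. None of the 31 separated the exposures, where 0.375% of all genes did. The signs were split, 16 above 0 and 15 below, where 48.3% of all genes were above 0. The median log2 fold change was 0.01, beside -0.01 over all genes. The smallest p-values were those of Snap25 (0.17 ± 0.11), Cplx2 (0.15 ± 0.11) and Nsf (0.15 ± 0.12), each with an adjusted p of 1.00 by edgeR. Snap25 had 0.10 without fentanyl male replicate 2, and Nsf 0.09 without saline male replicate 6. Intervals lay within 1.5-fold for 22 of 31 genes.

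The saline males, however, were not alike. Vamp1 had 194, 124 and 187 CPM in saline male replicates 1 to 3 and 377, 489 and 408 CPM in replicates 4 to 6, around a range of 227 to 326 CPM in the 6 fentanyl males. Cplx1 had 391, 373 and 396 CPM and then 703, 804 and 723 CPM in the same order, around 503 to 669 CPM in fentanyl males. Syt2 had 119, 116 and 71.2 CPM and then 257, 317 and 229 CPM, with 175 to 260 CPM in fentanyl males. Replicates 1 to 3 of the saline males lie below every fentanyl male for all 3 genes, and replicates 4 to 6 lie above every fentanyl male for Vamp1 and Cplx1. These 3 genes were picked after their values were seen, and how many of all genes split this way was not counted. Myelin marker sums were 7477, 10083 and 11674 CPM in the first 3 of these libraries and 23364, 29031 and 33907 CPM in the other 3. Astrocyte and microglia sums were also lower in the first 3. Striatal sums did not split this way, at 9674, 12565 and 4219 CPM and then 5456, 5153 and 3182 CPM. Fentanyl male replicate 2 had the highest myelin sum, 35263 CPM, and the lowest Vamp1, Cplx1 and Syt2 of the fentanyl males. The part of tissue makeup in these values was not tested.

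Library numbers in the labels are 1 and 2 for saline male replicates 1 and 2, and 9 to 12 for replicates 3 to 6. Fentanyl males carry numbers 1 to 6, and no fentanyl library of either sex has a number from 9 to 12. Exposure and number set thus cannot be fully told apart in males or over both sexes. Against numbers 1 and 2 alone, 3 of the 31 genes were called in males, all higher after fentanyl, beside 5.47% of all genes. On the log2 scale Syt2 was higher by 0.95 ± 0.17, Vamp1 by 0.83 ± 0.18 and Cplx1 by 0.65 ± 0.12. Their adjusted p-values were 0.0166, 0.0247 and 0.0166 by edgeR, 6 against 2. These genes had been picked above for low values in those same saline males, so the calls are no separate support for a difference. Against numbers 9 to 12 the values of Syt2, Vamp1 and Cplx1 were 0.07 ± 0.28, -0.36 ± 0.19 and -0.12 ± 0.15, with none of the 31 called. The spread within saline males was wider than within fentanyl males for 22 of the 31 genes, beside 57.3% of all genes. Leaving out fentanyl male replicate 2 but no saline male, an uneven comparison, it was wider for 30 of 31, beside 79.4% of all genes. The median coefficient of variation of the 31 was 19.2% in saline males, 13.4% in fentanyl males and 8.82% without that library.

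To follow related genes within a library, the ratio of their counts was taken in 8 pairs, chosen after the values were seen and described with no test. The log2 ratio of Vamp2 to Vamp1 was 1.78, 2.32 and 1.96 in saline male replicates 1 to 3 and 0.79, 0.17 and 0.64 in replicates 4 to 6. Fentanyl males lay between these sets, from 0.87 to 1.56, the saline females had 0.96 and 0.64, and the fentanyl females had 1.80 and 2.33. The ratio of Cplx2 to Cplx1 ran the same way, at 1.81, 1.92 and 1.43, then 0.81, 0.37 and 0.45 in saline males, 1.02 to 1.251 in fentanyl males, 1.01 and 0.72 in saline females and 1.66 and 1.71 in fentanyl females. Both fentanyl females thus sit with saline male replicates 1 to 3 and both saline females with the other saline males or the fentanyl males. Myelin sums in the fentanyl females were 19482 and 8274 CPM, and striatal sums 10727 and 15837 CPM. Sv2b over Sv2a, from -4.00 in saline male replicate 6 to -0.92 in saline male replicate 2, and Rims2 over Rims1, from -0.27 to 0.54 in the same libraries, were lowest and highest in the same animals. Syt2 over Syt1 had its lowest value, -2.44, in saline male replicate 3 and its highest, 1.32, in fentanyl male replicate 2.

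**Figure D4:**
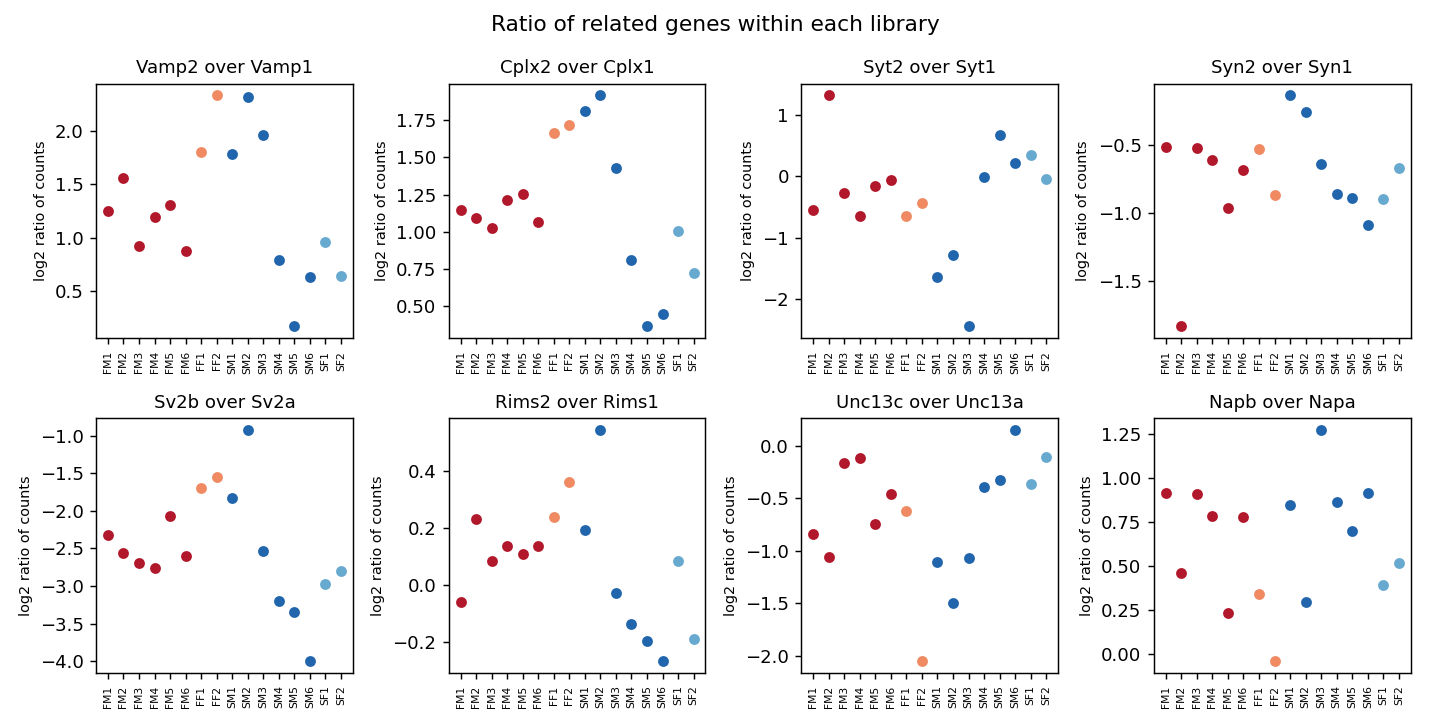
Log2 ratio of the counts of the second to the first gene of 8 related pairs (y axes, each with its own scale) in the 16 libraries (x axes, named as FM, FF, SM and SF with the replicate number; red and orange points fentanyl, dark and light blue points saline). For Vamp2 over Vamp1 and Cplx2 over Cplx1, saline males 1 to 3 lie above and saline males 4 to 6 below the fentanyl males.

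The promoters of the Vamp and Cplx pairs are shown because their ratios split the saline males into separate sets. RefSeq windows around the annotated start, in assembly GRCr8, were matched by symbol for 27 of the 31 genes. The processing notes name another build, rn7. Vamp1 lies at chr4:159698644-159698943 on the + strand, Vamp2 at chr10:54292539-54292838 on the + strand, Cplx1 at chr14:1328823-1329122 on the + strand and Cplx2 at chr17:10236704-10237003 on the - strand, each window read 5′ to 3′ along the gene. Capitals mark matches to the cyclic AMP response element (CRE) letters TGACGTCA and to the GC box letters GGGCGG on either strand.
Vamp1: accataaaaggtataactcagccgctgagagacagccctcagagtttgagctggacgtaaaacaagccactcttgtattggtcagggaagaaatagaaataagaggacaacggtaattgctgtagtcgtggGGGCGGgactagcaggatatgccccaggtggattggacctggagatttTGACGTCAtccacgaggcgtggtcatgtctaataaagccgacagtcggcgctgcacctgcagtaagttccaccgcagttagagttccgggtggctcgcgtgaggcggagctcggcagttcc
Vamp2: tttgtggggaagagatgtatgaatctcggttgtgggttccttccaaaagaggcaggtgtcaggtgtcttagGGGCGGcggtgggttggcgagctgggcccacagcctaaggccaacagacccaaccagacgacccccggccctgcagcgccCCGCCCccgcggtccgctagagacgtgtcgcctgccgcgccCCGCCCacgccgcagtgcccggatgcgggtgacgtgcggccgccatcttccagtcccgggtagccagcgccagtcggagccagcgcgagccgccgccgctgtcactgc
Cplx1: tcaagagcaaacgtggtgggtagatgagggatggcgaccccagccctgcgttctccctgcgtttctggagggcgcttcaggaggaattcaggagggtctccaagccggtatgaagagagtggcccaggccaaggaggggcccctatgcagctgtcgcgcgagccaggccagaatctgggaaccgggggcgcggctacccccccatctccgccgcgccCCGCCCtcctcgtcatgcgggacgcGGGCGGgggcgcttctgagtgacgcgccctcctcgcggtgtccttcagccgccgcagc
Cplx2: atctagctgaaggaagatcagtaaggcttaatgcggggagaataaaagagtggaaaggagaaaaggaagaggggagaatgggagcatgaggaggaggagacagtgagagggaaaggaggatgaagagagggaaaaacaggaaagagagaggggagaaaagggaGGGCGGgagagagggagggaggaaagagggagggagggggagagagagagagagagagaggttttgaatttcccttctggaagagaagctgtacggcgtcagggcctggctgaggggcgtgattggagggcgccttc

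Vamp1 holds a full CRE and 1 GC box, Vamp2 holds no full CRE and 3 GC boxes, Cplx1 has 2 GC boxes and Cplx2 has 1. Over all 27 matched genes, 4 windows held the full CRE letters (Vamp1, Syn1, Napa and Sh3gl2), beside 1.83% of 33469 windows of the same length, and 20 held a GC box, beside 33.1%. The TATA box letters TATAAA were in none of the 27 and in 14.2% of all windows. The 33469 windows include those of genes too low to test here, while the 27 genes were all tested, so the shares come from an unlike set. These are matches of letters in 1 annotated start per gene and say nothing of a factor at work.

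In females, 2 against 2 with the spread shared over all groups, no gene of the 31 passed and 0% of all genes did. At an unadjusted p under 0.05 there were 8 of 31, all higher after fentanyl, beside 14.3% of all genes: Cplx2, Napa, Vamp2, Syn1, Stx1a, Nsf, Syt7 and Sv2b. That count was 1 without fentanyl female replicate 2, and 10 without fentanyl female replicate 1, fentanyl male replicate 2 or saline male replicate 2. DESeq2 and limma voom called none of the 31 in females, nor in males, for the difference of the sexes or between the sexes. Cplx2 had the smallest p, at 1737 ± 119 against 1093 ± 87.1 CPM (SD, n = 2 each), or 0.67 ± 0.20 on the log2 scale (adjusted p = 0.333 by edgeR). Napa followed with 252 ± 35.7 against 181 ± 1.45 CPM (0.48 ± 0.17) and Vamp2 with 720 ± 142 against 527 ± 43.7 CPM (0.45 ± 0.16), each with an adjusted p of 0.333. Vamp2 had 0.23 without fentanyl female replicate 2. Larger log2 differences with larger p were those of Sv2b (1.12 ± 0.53), Stx1a (0.97 ± 0.41) and Vamp1 (-0.83 ± 0.46). The median log2 fold change of the 31 was 0.23, beside -0.01 over all genes. Summed markers also differed between the female exposures with no overlap. Pan-neuronal sums were 4252 and 4452 CPM after saline and 4862 and 5408 CPM after fentanyl. Sums of 11 astrocyte markers were 3297 and 3960 against 2427 and 2708 CPM, and those of 11 microglia markers 340 and 465 against 259 and 299 CPM, with no marker of these 3 lists at 0. The part of tissue makeup in the female values was not tested. The 2 exposures did not overlap for 17 of 31 genes, 14 higher and 3 lower (Vamp1, Rims1 and Cplx1), where 48.8% of all genes did not. Fentanyl females carried library numbers 1 and 2 and saline females 10 and 11, so exposure and number set cannot be told apart here. With the saline males of numbers 9 to 12 out of the shared fit, Cplx2 and Stx1a were called in females, beside 2.84% of all genes.

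The difference between the sexes was tested as the female minus the male fold change. No gene of the 31 passed, as none did over all genes (0%), and 5 of 31 had an unadjusted p under 0.05, beside 8.23% of all genes. Without fentanyl female replicate 2 there were 0, and without fentanyl female replicate 1 there were 9. The median of this difference was 0.20 over the 31. The 3 smallest p-values belonged to Stx1a (1.22 ± 0.47), Syn1 (0.68 ± 0.27) and Syt7 (0.48 ± 0.20), each with an adjusted p of 0.570 by edgeR. Stx1a had 24.7 and 34.5 CPM in fentanyl females and 15.6 and 14.7 CPM in saline females. In males it ran from 17.1 to 24.6 CPM after fentanyl and from 12.2 to 44.1 CPM after saline, the last in saline male replicate 3. Syn1, the phosphoprotein that ties vesicles to actin, had 229 and 300 CPM in fentanyl and 168 and 182 CPM in saline females, with overlapping male ranges of 166 to 263 and 188 to 317 CPM. Syt7 had 374 and 407 against 308 and 283 CPM in females, and 285 to 347 against 253 to 392 CPM in males. Without the saline males of numbers 9 to 12, 9 of the 31 were called for this difference, 6 higher and 3 lower, beside 16.4% of all genes. The only saline males left in that fit were those of numbers 1 and 2. Low Syt2, Vamp1 and Cplx1 in these libraries were described above, so the count is no separate support for a difference between the sexes.

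Females and males were compared with exposure as a term, 4 against 12. No gene of the 31 passed, beside 0.056% of all genes, and 1 had an unadjusted p under 0.05, beside 2.52%. None separated the sexes, where 0.106% of all genes did, and the median log2 fold change was -0.04. Napa had 216 ± 45.7 CPM in females and 184 ± 20.4 CPM in males (SD, n = 4 and 12; log2 fold change 0.22 ± 0.10), and 0.11 on the log2 scale without fentanyl female replicate 2. Napb had 263 ± 21.1 and 309 ± 41.5 CPM (-0.23 ± 0.11), and Sv2a had 342 ± 34.4 and 397 ± 61.9 CPM (-0.22 ± 0.13). Each had an adjusted p of 1.00 by edgeR. The intervals allow a difference of up to 1.36-fold for Napa, higher in females.

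Single libraries differed widely. The ratio of the highest to the lowest library ran from 1.31 for Rims2 to 5.50 for Syt1, with a median of 1.99 over the 31 genes, beside 2.14 over all genes with a count in every library. It was above 4 for 6 genes: Syt1, Syt2, Syn2, Sv2b, Sv2c and Sh3gl2. Fentanyl male replicate 2 held the lowest level of 11 of the 31 genes and saline male replicate 6 that of 6. In fentanyl male replicate 2, Syt1 was at 70.2 CPM, Sh3gl2 at 16.7 CPM, Syn2 at 46.5 CPM and Pclo at 93.4 CPM, against lowest values of 267, 65.2, 113 and 192 CPM in the other fentanyl males. The same library held the highest Snap25. Its mitochondrial share was the highest of the 16 at 17.7%, and so was its myelin sum at 35263 CPM, and the part of these in the low values was not tested. Without it, 28 of the 31 genes had a log2 fold change above 0 over both sexes, the median was 0.11, and none was called. The share of all genes above 0 was not counted for that fit. Over the 16 fits that each left out 1 library, the median ran from 0.02 to 0.11, and it was highest here.

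**Figure D5:**
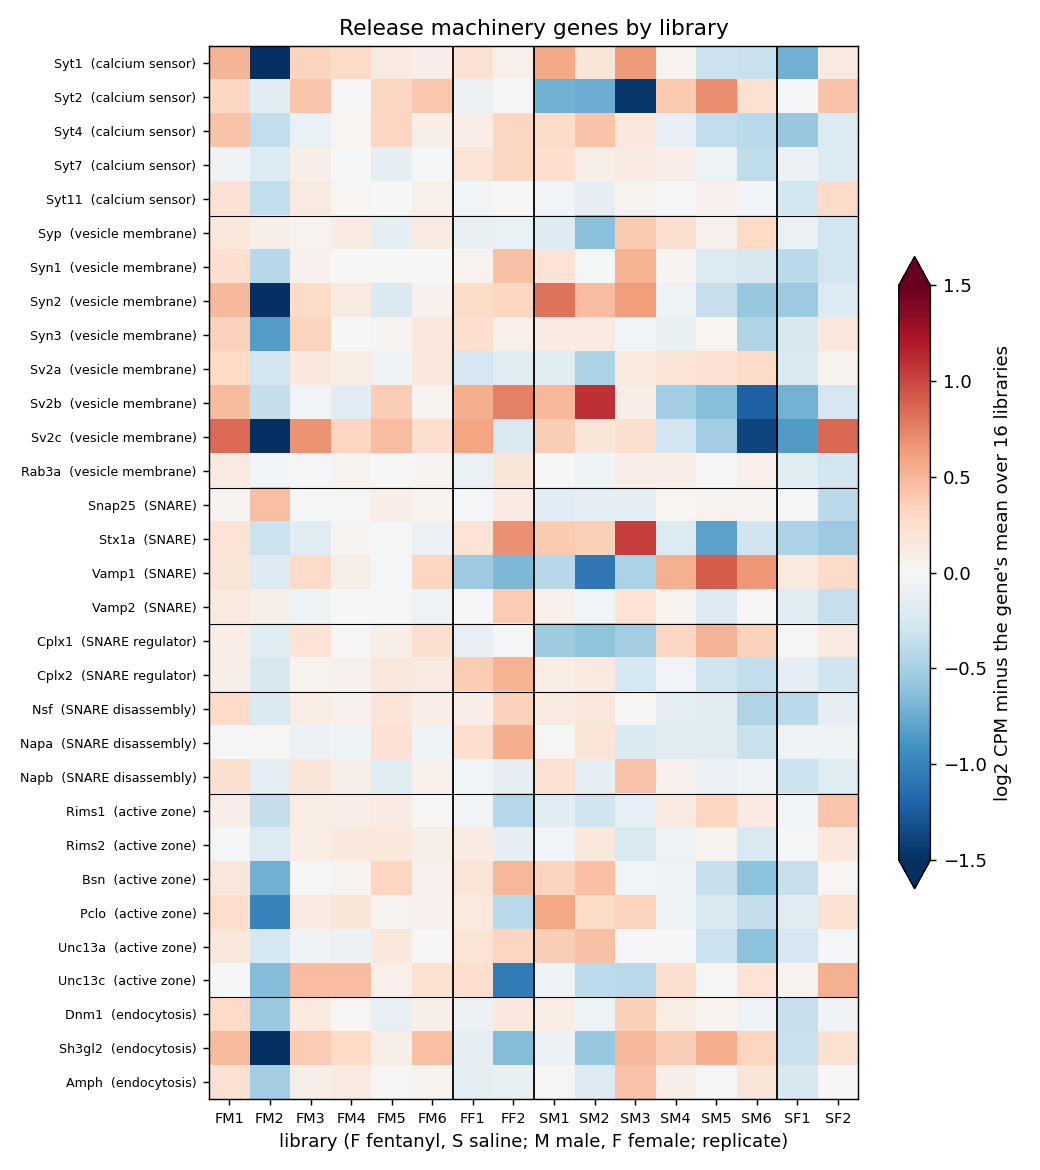
Level of each of the 31 genes (rows, grouped by role) in each of the 16 libraries (columns), as log2 CPM minus the mean of the gene over all libraries, red above and blue below, with the colour scale ending at 1.5 on either side. Fentanyl male replicate 2 (FM2) is blue for Syt1, Syn2, Sv2c and Sh3gl2, and saline male replicates 1 to 3 and 4 to 6 differ in colour for Syt2, Vamp1 and Cplx1.

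Another 76 genes of the pathway were counted beside the 31: further synaptotagmins, Munc18 and tomosyn, liprins, synaptogyrins, clathrin and its adaptors, and the vesicular transmitter transporters. Over both sexes none passed, 2 (2.63%) had an unadjusted p under 0.05, beside 7.27% of all genes, and the median log2 fold change was 0.02. Prrt2, a presynaptic SNARE-binding protein, had 169 ± 28.2 CPM after fentanyl and 131 ± 25.4 CPM after saline (SD, n = 8 each). Its fitted log2 difference was 0.36 ± 0.13 (adjusted p = 0.537 by edgeR). Slc17a8, the vesicular glutamate transporter VGLUT3, had 11.8 ± 4.70 and 8.67 ± 4.23 CPM (0.47 ± 0.27, and 0.31 without fentanyl female replicate 2). On the lower side, Unc13b, a Munc13 relative, had 20.7 ± 2.18 and 22.7 ± 1.66 CPM (-0.14 ± 0.08). Slc17a7, the glutamate transporter VGLUT1, had a log2 fold change of -2.42 ± 1.12 that rested on saline male replicate 3, and without it the value was 0.36.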

How the data were processed

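Poly(A) RNA-seq counts of 16 rat libraries were analysed. The submitters' processing notes name DESeq2, HTSeq, STAR and Trimmomatic, and build rn7, without versions or roles. The annotation and strand setting were not stated there. Without strand, a gene and an overlapping or antisense partner cannot be separated. The authors deposited whole-number counts per gene with no normalization, 1 column per library, each named as in that sample's description. Of 33294 genes, 5345 had no count.

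The tests used edgeR 4.0.16 under R 4.3.3: filterByExpr on the 4 groups (minimum count 10), TMM factors, and robust quasi-likelihood tests. Exposure over both sexes was fitted with sex as a term, and sex with exposure as a term. Males, females and their difference were contrasts of a 4-group fit. P-values were adjusted over all genes tested by Benjamini-Hochberg. The standard error of a log2 fold change is its size over the root of its F statistic, and intervals are 95%. Pair ratios had 0.5 added to each count. DESeq2 1.42.0 and limma 3.58.1 (voom with quality weights) were alternatives, with RLE factors, no filter, no sex term, males alone, the replicate number as a block, marker list means as covariates, and libraries left out. No 2 libraries agreed within sampling noise (smallest chi-square per gene 3.84 over 120 pairs).

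The genes, lists and pairs were chosen with earlier results of these data known. Values by library were given for the 6 genes with the smallest p over both sexes and the one with the largest fold change, and values for the 3 with the smallest p in each other comparison. In the list of other pathway genes, the 2 with the smallest p in each direction were named. Further genes were described after their values were seen. Of the marker lists, 1 entry was matched by an older symbol and 1 was not found. The steps were tested on simulated counts.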

Additional observations from a re-analysis of the deposited data

Results flagged for a closer look

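Among 12 genes checked in the 2 male groups (24 groups of 6), a single library stood apart from the other 5 in 3 cases by Dixon's criterion, which chance meets in about 1 in 20 groups. Snap25 was at 1899 CPM in fentanyl male replicate 2, above 1371 to 1482 CPM in the other fentanyl males. Cplx2 was at 1075 CPM in the same library, below 1324 to 1433 CPM. Napa was at 221 CPM in fentanyl male replicate 5, above 179 to 193 CPM.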

How the results depend on the processing

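No release machinery gene was called in any of the 5 comparisons with RLE factors, no filter, DESeq2, the replicate block, or the myelin and striatal list means as covariates, nor over both sexes with no sex term or in males alone. With each of the 16 libraries left out in turn, 0 genes were called in each comparison and in the list of 76 others. The exceptions were these. Over both sexes 4 genes were called by limma voom, beside 5.63% of all genes, and 3 without saline males of numbers 1 and 2, beside 6.9%. Of the 76 other pathway genes, 3 and 6 were called in these fits. Without saline males of numbers 9 to 12, 3 genes were called in males (5.47% of all genes), 2 in females (2.84%) and 9 for the difference (16.4%). The cause was not tested. Among the genes named by rule, directions turned for Cplx2 (-0.082) and Nsf (-0.061) in males without numbers 9 to 12. They also turned for Slc17a8 (-0.014) and Slc17a7 (1.32) with the list means as covariates, and for Slc17a7 without numbers 9 to 12 (0.72). Vamp2 had -0.010 in males alone against 0.11 over both sexes, but the male contrast of the main fit was also below 0 (-0.0085). Over all 31 genes and both sexes, directions turned for 10 with the covariates, 10 without numbers 9 to 12, 6 without numbers 1 and 2, 7 with limma voom and 0 with DESeq2. In males they turned for 15, 11, 9, 12 and 0. Leaving out 1 library moved Slc17a7 between -2.85 and 0.36. With the replicate number as a block 0 genes were called and the median was 0.06. Deviations of males with the same replicate number correlated at -0.07 to 0.21 across genes, over 0.1 in 2 of 6 pairs. Of the 6 fentanyl males, 1 correlated best with the saline male of its own replicate number. These values cannot tell whether animals shared a litter or were handled together, and library numbers were not tested as pairs. With 2 females per exposure, 5 of 31 intervals in females lay within 1.5-fold, beside 26 of 31 over both sexes.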
